A study of Mus musculus with 29 samples.

Results

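The 10 genes described here encode the core and accessory subunits of Polycomb repressive complex 2 (PRC2): Ezh1, Ezh2, Eed, Suz12, Rbbp4, Rbbp7, Jarid2, Mtf2, Phf19 and Aebp2. They were chosen by name, and each was found once, by its Ensembl identifier, among the 38355 genes of the untreated count table and the 48709 genes of the treated one. All 10 passed the filter on low counts in every fit. PRC2 places methyl groups on lysine 27 of histone H3, and the trimethylated form, H3K27me3, marks repressed genes. EZH1 and EZH2 are the alternative catalytic subunits, EED and SUZ12 are needed for catalysis, and RBBP4 and RBBP7 are histone chaperones that PRC2 shares with other complexes. JARID2 and AEBP2 form one class of accessory subunit, and the Polycomb-like proteins MTF2 and PHF19 belong to the other. In the developing cortex, EZH2 is best known from cycling progenitors, where PRC2 sets the timing of neurogenesis and gliogenesis.

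The study deleted Baf155 (Smarcc1) and Baf170 (Smarcc2), which encode scaffold subunits of the BAF chromatin remodelling complex, and measured RNA in the cortex of C57BL/6J embryos at stage E17.5 (embryonic). The untreated experiment had 4 libraries lettered C and 3 lettered M. Their genotype label reads BAF dcKO_hGFAP-Cre in all 7, so the groups carry the letters of the sample names here. The group sizes are those the study states for its control and double-knockout (dcKO) RNA samples. The treated experiment had 4 wild-type libraries given vehicle (WT vehicle), 4 BAF dcKO_hGFAP-Cre libraries given vehicle (dcKO vehicle) and 4 BAF dcKO_hGFAP-Cre libraries given a Wnt inhibitor (dcKO Wnt inhibitor). The inhibitor, ICG-001, was injected into the pregnant dam. hGFAP-Cre acts in radial glia and their progeny, and cells of other lineages keep both genes. In such bulk tissue, fewer cells of a type and less RNA per cell cannot be told apart. The 8 H3K27me3 chromatin immunoprecipitation libraries, 4 lettered C and 4 lettered K, likewise carry a single genotype label.

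The deleted genes were read first. Normalised read counts (CPM, counts scaled to an equal library size) of Smarcc1 were 247.3, 264.2, 269.3 and 248.4 in untreated C, and 245.5, 128.1 and 135.4 in untreated M replicates 2, 3 and 4. They were 244.5, 265.9, 298.8 and 255.9 in WT vehicle, 135.8, 242.5, 133.2 and 138.1 in dcKO vehicle, and 214.3, 251.8, 139.8 and 173.3 in dcKO Wnt inhibitor. Smarcc2 was at 653.6, 703.4, 713.9 and 655.8 CPM in untreated C and at 669.9, 399.5 and 398.2 CPM in untreated M. It was at 834.4, 715.7, 664.3 and 710.6 CPM in WT vehicle, at 439.0, 691.8, 425.0 and 435.3 CPM in dcKO vehicle and at 644.3, 694.8, 415.6 and 585.7 CPM in dcKO Wnt inhibitor. The libraries labelled M replicate 2, dcKO vehicle replicate 2 and dcKO Wnt inhibitor replicates 1 and 2 therefore held Smarcc1 above 200 CPM, near or within the control range, and the main values are given with and without them. The limit of 200 CPM was set after these values were seen. The labels do not say whether replicates came from separate embryos, and p-values measure the spread between these samples.

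The experiments are also not shown to be independent of each other. Over 15220 genes, the deviation of each untreated C library from its group mean correlated best with the WT vehicle library of the same number (4 of 4, r from 0.20 to 0.55, against -0.35 to 0.14 for other numbers). dcKO vehicle replicate 1, which has no untreated M library of its number, was not compared. Among dcKO vehicle replicates 2 to 4, each untreated M library correlated best with that of the same number (3 of 3, r from 0.59 to 0.79, against -0.67 to 0.22). These are correlations across genes, and genes are not independent replicates. Whether same-numbered samples came from the same embryo is not given in the sources used here, so agreement between the experiments is not counted as repetition below. Total counts ran from 11946658 (untreated M replicate 2) to 28391046. Each of the 10 neuronal marker genes had counts in every library, with a summed level of 6931 to 10284 CPM. Markers of the choroid plexus, which borders the dissected tissue, summed to 837.4, 160.6, 475.9 and 11.04 CPM in dcKO Wnt inhibitor and to at most 129.6 CPM in any other library.

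Per length of exon (RPKM), the members fell into an order that was nearly the same in all 5 groups, as the plot of levels shows. Rbbp7 was highest, with group means from 33.3 to 36.3 RPKM, and Rbbp4 followed at 27.5 to 30.4 RPKM. Their libraries overlapped in WT vehicle and dcKO Wnt inhibitor but not in the other 3 groups. Ezh2 (19.5 to 23.4 RPKM), Suz12 (18.5 to 24.3 RPKM) and Mtf2 (16.1 to 21.4 RPKM) came next, and neighbours among these 3 genes overlapped in all 5 groups. Suz12 had a higher mean than Ezh2 in the untreated groups, and Ezh2 a higher mean than Suz12 in the treated ones. Mtf2 overlapped with Jarid2 in the 3 treated groups and not in the untreated ones. Jarid2 had group means of 10.997 to 13.7 RPKM, Eed 7.35 to 8.46 RPKM, Ezh1 6.51 to 7.16 RPKM and Aebp2 5.20 to 6.76 RPKM. Phf19 was lowest, at 1.10 to 1.34 RPKM, and did not overlap with Aebp2 in any group. Rbbp4 and Rbbp7 are close paralogs, and reads that cannot be told apart between such copies may make their split less certain. The share of such reads was not measured.

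**Figure D1:**
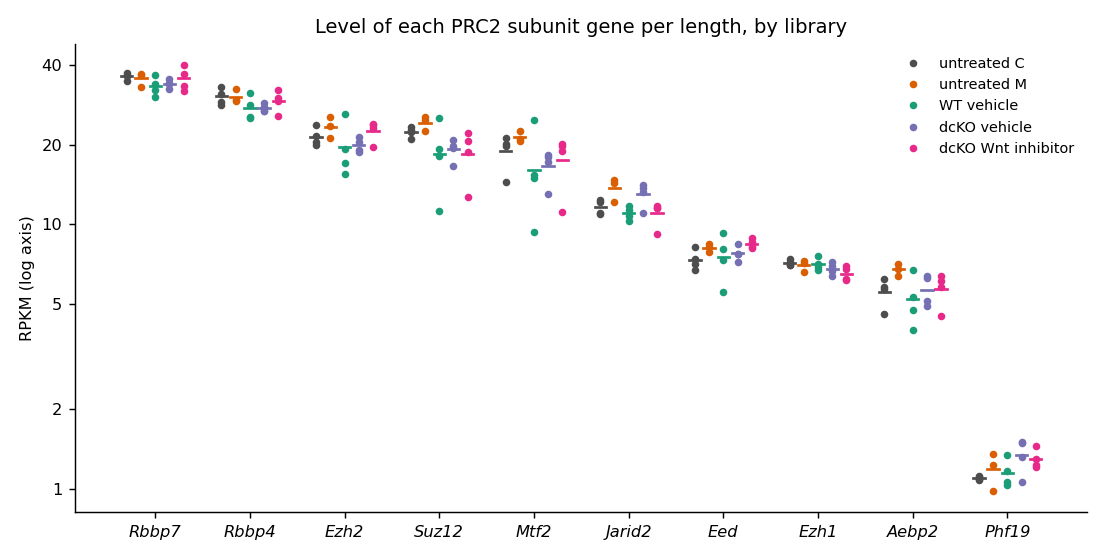
RPKM of the 10 PRC2 subunit genes on a log axis; each point is 1 library, colours mark the 5 groups and bars the group means. Rbbp7 and Rbbp4 sit at the top and Phf19, at 1.10 to 1.34 RPKM, at the bottom in every group.

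The first question was whether any subunit differed in level between groups. At a Benjamini-Hochberg adjusted p under 0.05 in edgeR's quasi-likelihood test, 0 of 10 members were called in untreated M against untreated C, where 0.00634% of 15770 genes were called. For dcKO vehicle against WT vehicle 0 of 10 were called (0.00611% of 16372 genes), for dcKO Wnt inhibitor against dcKO vehicle 0 of 10 (0.055%), and for dcKO Wnt inhibitor against WT vehicle 0 of 10 (0.0977%). At an unadjusted p under 0.01, 0 members passed in any of these 4 comparisons, where 5.46%, 2.85%, 4.65% and 6.72% of all genes did. At an unadjusted p under 0.05, 2, 1, 1 and 0 members passed, where 16%, 9.46%, 15.8% and 19.8% of all genes did. The members were Jarid2 and Aebp2, higher in untreated M (7.91% of all genes in that direction), Jarid2, higher in dcKO vehicle than in WT vehicle (4.14%), and Jarid2, lower in dcKO Wnt inhibitor than in dcKO vehicle. DESeq2 called 0 of 10 members in each of the 4 comparisons. Over all genes it called 249 higher and 280 lower of 26053 in untreated M. Of 31304 genes in the treated experiment, it called 84 higher and 34 lower in dcKO vehicle against WT vehicle. For dcKO Wnt inhibitor it called 188 higher and 156 lower against dcKO vehicle, and 320 and 413 against WT vehicle.

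The log2 fold changes were small, as the plot of fold changes shows. In the untreated experiment the median of the 10 members was 0.12, beside 0.004 over all genes, and 7 of 10 were above 0, as were 51% of all genes. Without M replicate 2 the median was 0.0715, with 8 of 10 above 0. In dcKO vehicle against WT vehicle the median was 0.05, with 9 of 10 above 0 (49.3% of all genes), and this count rested on a single library. Without WT vehicle replicate 1 the median was -0.0265, with 3 of 10 above 0, and without WT vehicle replicate 3 it was 0.22, with 9 of 10 above 0. In dcKO Wnt inhibitor against dcKO vehicle it was 0.04, with 6 of 10 above 0 (51.8%), and against WT vehicle 0.11, with 8 of 10 above 0 (50.8%). With single libraries left out, these medians ran from -0.0384 (without dcKO vehicle replicate 1) to 0.0996 (without dcKO Wnt inhibitor replicate 1) and from 0.0321 (without WT vehicle replicate 1) to 0.22 (without WT vehicle replicate 3). Without the libraries of Smarcc1 above 200 CPM, the 3 treated medians were 0.0413, 0.0954 and 0.18, with 7, 8 and 9 of 10 above 0. The last 3 comparisons share libraries, so their values are not independent of one another.

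**Figure D2:**
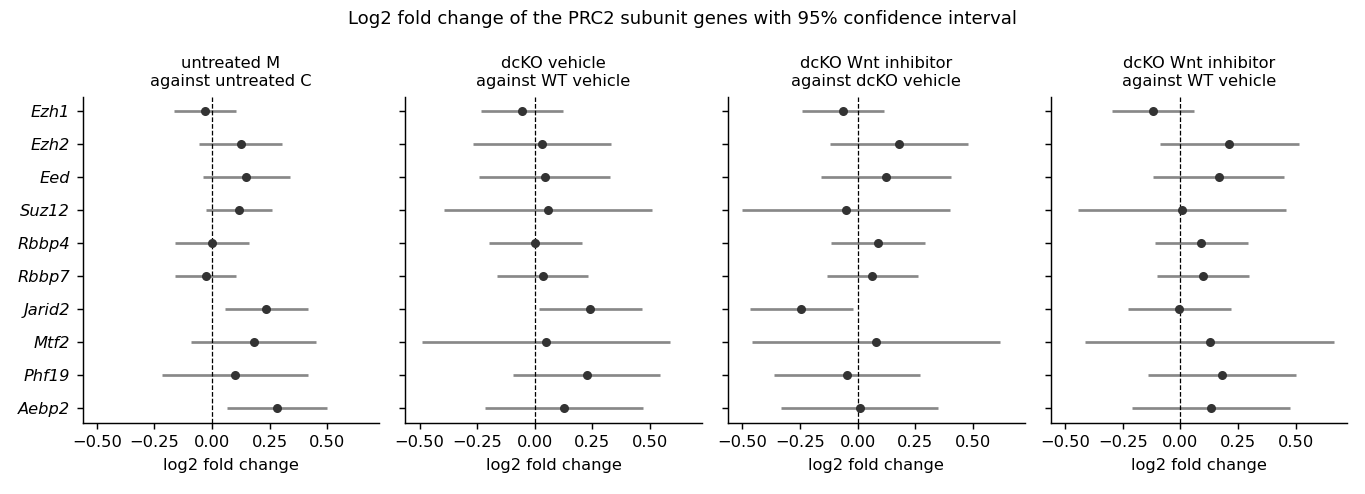
Log2 fold change (x axis) of each PRC2 subunit gene in the 4 comparisons, with its 95% confidence interval from the edgeR fit. The intervals of Jarid2 leave out 0 in the first 3 panels and that of Aebp2 in the first, before adjustment for the number of genes tested.

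Jarid2, at chromosome 13, 44729474 to 44921643 on the plus strand (GRCm38), encodes an accessory subunit that helps PRC2 bind chromatin. It had the smallest unadjusted p of the 10 in the first 3 comparisons. In untreated C it was at 106.0, 118.5, 120.5 and 107.4 CPM, and in untreated M replicates 2, 3 and 4 at 117.5, 139.2 and 142.3 CPM. The libraries labelled M replicates 3 and 4, whose Smarcc1 was low, lay above all 4 untreated C libraries, and the library labelled M replicate 2 lay among them. Jarid2 was 1.18-fold higher in M (log2 fold change 0.24 ± 0.08 SE, adjusted p = 0.213), which missed the threshold. Without M replicate 2 the log2 fold change was 0.31 ± 0.07 SE and Jarid2 passed (adjusted p = 0.0128), where 12.4% of 16024 genes were called, 5.57% as higher in M. That fit has 2 libraries in M, and over the 7 fits that each omit a single library the adjusted p of the edgeR test ran from 0.0128 to 0.648.

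In the treated experiment Jarid2 was at 99.9, 114.3, 110.2 and 104.5 CPM in WT vehicle and at 129.3, 107.3, 133.6 and 136.4 CPM in dcKO vehicle. The library labelled replicate 2, in which Smarcc1 was not reduced, lay within the WT range, and the other 3 lay above it. The log2 fold change was 0.24 ± 0.10 SE (adjusted p = 0.478). With that library alone left out it was 0.31 ± 0.10 SE (adjusted p = 0.133), where 3.4% of genes were called. With dcKO Wnt inhibitor replicates 1 and 2 left out as well, which enter only through the shared estimate of the spread, it was 0.31 ± 0.08 SE (adjusted p = 0.0499), at the edge of the threshold (with each treated library of the 2 groups left out alone, edgeR adjusted p = 0.133 to 0.941), where 5.82% of 16815 genes were called, 2.47% as higher. Groups that did not overlap were common once these libraries were left out. In the untreated experiment 18.9% of genes were higher in both remaining M libraries than in any C library, and in the treated one 9.17% were higher in the 3 remaining dcKO vehicle libraries than in any WT vehicle library.

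In dcKO Wnt inhibitor, Jarid2 was at 89.5, 114.0, 112.4 and 111.5 CPM. Replicates 1 and 2 of these libraries held Smarcc1 above 200 CPM. The dcKO vehicle libraries ran from 107.3 to 136.4 CPM of Jarid2, so the groups overlapped. Of the Wnt inhibitor values of Jarid2, 3 lay within the WT vehicle range. The log2 fold change was -0.24 ± 0.10 SE against dcKO vehicle (adjusted p = 0.28) and -0.01 ± 0.10 SE against WT vehicle (adjusted p = 0.984). Without the libraries with Smarcc1 above 200 CPM, the value against dcKO vehicle was -0.25 ± 0.10 SE (adjusted p = 0.21, where 1.02% of genes were called) and that against WT vehicle 0.06 ± 0.09 SE (adjusted p = 0.718, where 7.38% were). The 2 Wnt inhibitor libraries kept in that fit, replicates 3 and 4, had 112.4 and 111.5 CPM of Jarid2 with 139.8 and 173.3 CPM of Smarcc1.

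**Figure D3:**
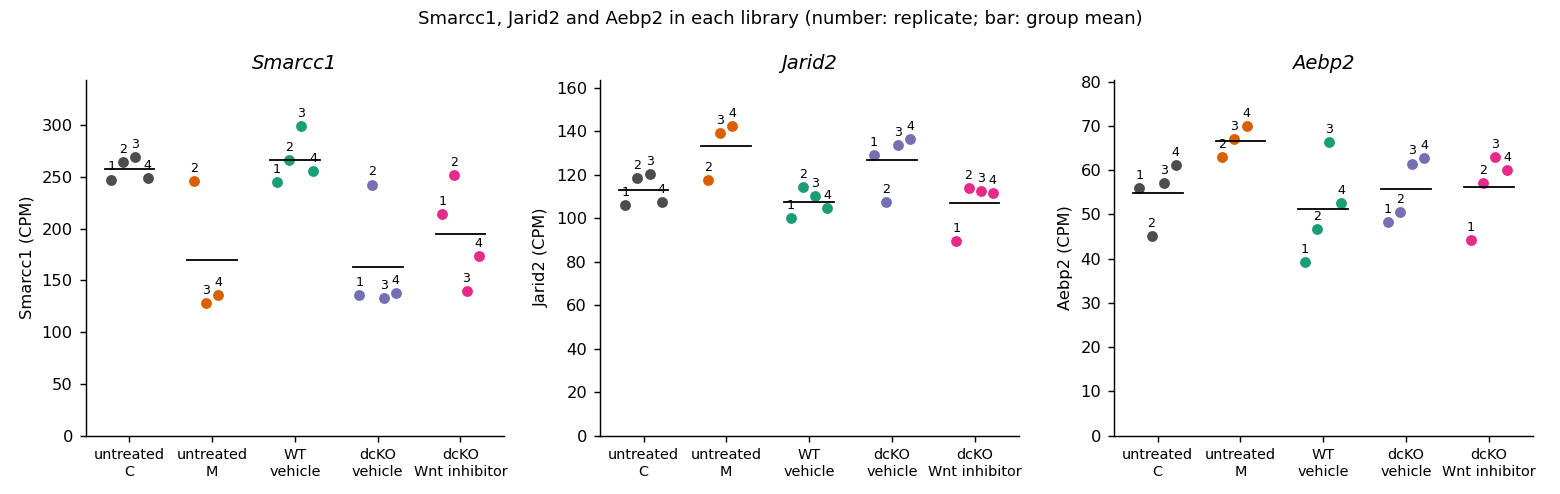
CPM of Smarcc1, Jarid2 and Aebp2 in each of the 19 RNA libraries; numbers give the replicate and bars the group mean. Untreated M replicates 3 and 4 and dcKO vehicle replicates 1, 3 and 4 combine Smarcc1 of 128.1 to 138.1 CPM with Jarid2 of 129.3 to 142.3 CPM. These libraries were picked after their values were seen. Jarid2 lies above all untreated C libraries in the former, as do 18.9% of all genes. It lies above all WT vehicle libraries in the latter, as do 9.17%. In dcKO Wnt inhibitor Jarid2 is at most 114.0 CPM, also in replicate 3, whose Smarcc1 is 139.8 CPM. The experiments were normalised separately, and their same-numbered libraries are not shown to be independent.

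Aebp2, which encodes a zinc finger subunit, was the member whose untreated groups did not overlap. It was at 56.0, 45.2, 57.1 and 61.2 CPM in untreated C and at 62.9, 66.9 and 69.9 CPM in untreated M. Groups that did not overlap were found for 13.2% of all genes, with 6.96% higher and 6.21% lower in M. The log2 fold change was 0.28 ± 0.10 SE (adjusted p = 0.217), and 0.32 ± 0.10 SE without M replicate 2 (adjusted p = 0.0786). In the treated experiment Aebp2 was at 39.3, 46.7, 66.2 and 52.5 CPM in WT vehicle, 48.3, 50.5, 61.5 and 62.8 CPM in dcKO vehicle and 44.2, 57.1, 62.9 and 60.1 CPM in dcKO Wnt inhibitor, and all 3 groups overlapped. In the 3 treated comparisons 0 members had groups that did not overlap, beside 5.66% of all genes for dcKO vehicle against WT vehicle, 8.51% for dcKO Wnt inhibitor against dcKO vehicle and 7.49% against WT vehicle. Its log2 fold change was 0.13 ± 0.16 SE for dcKO vehicle against WT vehicle (adjusted p = 0.933).

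Of the catalytic subunits, Ezh1 lay between 45.7 and 56.5 CPM in all 19 libraries, and its log2 fold changes ran from -0.12 to -0.03 over the 4 comparisons. Ezh2 was at 137.0, 143.5, 158.1 and 132.8 CPM in untreated C and at 169.7, 141.3 and 156.8 CPM in untreated M. It was at 103.8, 128.5, 174.9 and 114.2 CPM in WT vehicle, 125.2, 143.2, 127.6 and 136.5 CPM in dcKO vehicle, and 130.8, 154.9, 158.2 and 159.7 CPM in dcKO Wnt inhibitor. The WT vehicle libraries alone spanned the whole range of the other treated groups. Its log2 fold change was 0.12 ± 0.08 SE in the untreated experiment (adjusted p = 0.484) and 0.21 ± 0.14 SE for dcKO Wnt inhibitor against WT vehicle (adjusted p = 0.41), with an interval of the latter from -0.09 to 0.51.

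The ratio of Ezh2 to Ezh1 within a library does not depend on scaling between libraries. Per length, Ezh2 exceeded Ezh1 in all 19 libraries, by 2.05-fold (WT vehicle replicate 1) to 3.86-fold (dcKO Wnt inhibitor replicate 4). The log2 count ratio was 1.42 ± 0.12 (SD, n = 4) in untreated C and 1.58 ± 0.17 (SD, n = 3) in untreated M, and the difference of 0.16 did not pass a two-sided exact permutation test (p = 0.2, smallest possible 0.0286). It was 1.28 ± 0.36 (SD, n = 4) in WT vehicle, 1.39 ± 0.10 (SD, n = 4) in dcKO vehicle and 1.64 ± 0.21 (SD, n = 4) in dcKO Wnt inhibitor. The differences were 0.11 for dcKO vehicle against WT vehicle (exact permutation p = 0.6), 0.24 for dcKO Wnt inhibitor against dcKO vehicle (exact permutation p = 0.114) and 0.36 for dcKO Wnt inhibitor against WT vehicle (exact permutation p = 0.143). Adjusted over these 4 ratio tests, the smallest p was 0.267. WT vehicle replicate 1, the lowest at 0.88, decided the sign of the first of these treated differences, which was -0.02 without it. Without dcKO Wnt inhibitor replicate 1 (1.34, against 1.62 to 1.79 in the other 3), the second was 0.34 (exact permutation p = 0.0286, the smallest possible). Without the libraries of Smarcc1 above 200 CPM, the 3 treated differences were 0.10 (exact permutation p = 0.714), 0.41 (exact permutation p = 0.1, the smallest that 2 against 3 libraries allow) and 0.51 (exact permutation p = 0.133). The untreated difference without M replicate 2 was 0.11 (exact permutation p = 0.533).

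The genes whose pattern over the 12 treated libraries was most like that of Ezh2 were Rbm39, Pnpt1, Cenpl, Psmc6 and Hbp1. Their log2 CPM, centred on each gene's mean, differed from that of Ezh2 by 0.057 to 0.065 on average, beside a median of 0.23 over the 11683 genes compared. Of the members, Eed was nearest (0.097, rank 145), followed by Rbbp4 (0.101, rank 196), and Jarid2 was farthest (0.237, rank 6212). All points share the 12 libraries.

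In WT vehicle, Suz12 and Mtf2 varied most of the 10. Suz12, a core subunit, was at 55.5, 95.3, 124.5 and 89.6 CPM in WT vehicle replicates 1 to 4, at 82.4, 95.9, 97.9 and 103.4 CPM in dcKO vehicle and at 62.6, 101.8, 109.0 and 92.6 CPM in dcKO Wnt inhibitor. Mtf2, which encodes a Polycomb-like subunit that binds CpG-rich DNA, was at 53.1, 85.0, 140.8 and 87.9 CPM, at 74.3, 97.7, 104.0 and 102.3 CPM and at 63.4, 112.6, 115.0 and 108.3 CPM in the same groups. The library numbered 1 was the lowest of both genes in each of the 3 groups. The same held for Ezh2 and Aebp2, so it held for 4 of 10 members, and for 11.4% of the 16372 genes tested. The libraries numbered 2, 3 and 4 were lowest in all 3 groups for 1.12%, 2.9% and 0.519% of genes. Those numbered 1 were also highest in all 3 groups for 6.6% of genes, with 0 members among them. Those numbered 3 were highest for 2.65%, with Mtf2 among them. Deviations of WT vehicle replicate 1 from its group mean correlated across genes with those of dcKO vehicle replicate 1 (r = 0.38) and dcKO Wnt inhibitor replicate 1 (r = 0.40). Between dcKO vehicle replicate 1 and dcKO Wnt inhibitor replicate 1 the correlation was only 0.08. What sets the libraries numbered 1 apart was not tested.

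The spread of Mtf2 in WT vehicle was a coefficient of variation of 39.6%, which 8.94% of genes reached, and that of Suz12 was 30.98%, which 17.7% reached. The 95% intervals of both fold changes included 0 in all 4 comparisons. The log2 fold change of Suz12 was 0.06 ± 0.21 SE for dcKO vehicle against WT vehicle (interval -0.39 to 0.51) and that of Mtf2 0.05 ± 0.25 SE (interval -0.49 to 0.59). Differences within these bounds were therefore not excluded. In the untreated experiment, Suz12 lay at 103.8 to 115.8 CPM in C and 111.4 to 125.5 CPM in M, and Mtf2 at 82.2 to 120.5 CPM in C and 117.9 to 128.5 CPM in M.

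**Figure D4:**
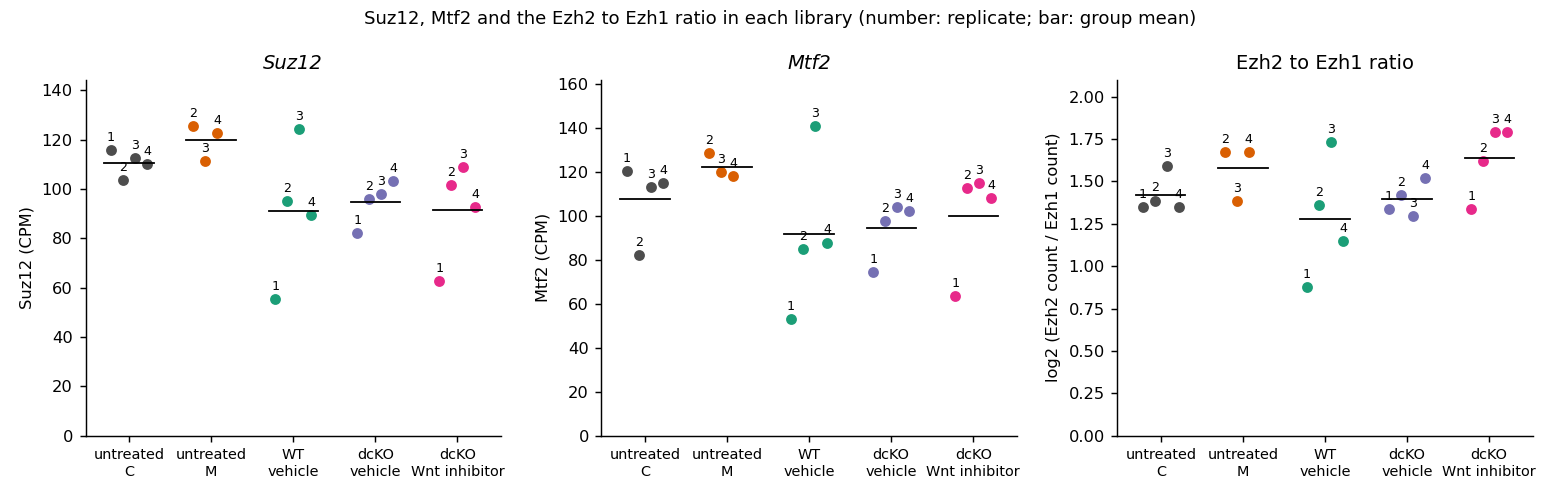
CPM of Suz12 and of Mtf2 and the log2 ratio of Ezh2 to Ezh1 counts in each library; numbers give the replicate and bars the group mean. The treated libraries numbered 1 are the lowest of their group for Suz12 (55.5, 82.4 and 62.6 CPM) and Mtf2 (53.1, 74.3 and 63.4 CPM).

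The remaining core subunits had coefficients of variation in WT vehicle below that of Suz12. Eed, the reader of H3K27me3 within PRC2, lay between 21.2 and 35.4 CPM, and its log2 fold changes between 0.04 and 0.17. Rbbp4 lay between 220.2 and 290.1 CPM, with log2 fold changes from -0.002 to 0.09, and Rbbp7 between 87.9 and 116.1 CPM, with log2 fold changes from -0.03 to 0.10. The interval of the Rbbp4 difference for dcKO vehicle against WT vehicle ran from -0.20 to 0.21 on the log2 scale. The difference of the genotype effect between the treated and untreated experiments was within -0.15 to 0.13 for all 10 members, and 0 of 10 were called (0% of 16156 genes by edgeR and 0 genes by DESeq2, with 0.099% at an unadjusted p under 0.01 and 0.501% under 0.05). That test takes the 19 libraries as independent.

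Phf19, the second Polycomb-like member, was the lowest expressed gene of the 10, and the only one with H3K27me3 at its start site in most libraries. Its RNA was at 5.6, 5.5, 5.6 and 5.5 CPM in untreated C and 6.8, 5.0 and 6.2 CPM in untreated M. In the treated experiment it was at 5.4, 5.9, 6.8 and 5.2 CPM in WT vehicle, 6.6, 7.5, 5.4 and 7.6 CPM in dcKO vehicle and 6.5, 6.1, 6.2 and 7.3 CPM in dcKO Wnt inhibitor. The groups overlapped, and the log2 fold change was 0.22 ± 0.15 SE for dcKO vehicle against WT vehicle (adjusted p = 0.714). The gene lies on the minus strand of chromosome 2, 34893757 to 34914026.

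A deposited H3K27me3 peak lay within 2000 bp of a Phf19 start site in 3 of 4 C and 3 of 4 K libraries, a state reached or passed (6 of 8 libraries or more) by 11.7% of 22028 protein-coding genes. Fold enrichment over input was 8.80, 4.05 and 3.63 in C replicates 1, 2 and 4 and 6.10, 4.96 and 6.60 in K replicates 1, 3 and 4. C replicate 3 and K replicate 2 had no peak there. The C and K values overlapped. The peaks were 956 to 2869 bp wide. The libraries differed widely in depth. Tags left after duplicates were removed ran from 2420911 (C replicate 3) to 28335352 (C replicate 4), and the number of peaks from 6674 to 46000. C replicate 3 and K replicate 2 (3386488 tags), with no peak at Phf19, were among the shallow libraries, but C replicate 1, with 2806857 tags, had the highest enrichment there. The part of depth in these calls was not tested.

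The start sites of the other members were mostly without peaks. Ezh2, Eed, Suz12, Rbbp4 and Mtf2 had none in any of the 8 libraries, at the start site or over the gene body. Ezh1 and Rbbp7 had a start-site peak in K replicate 4 alone, the library with the most peaks, at 2.90-fold and 3.75-fold enrichment. Rbbp7 also had a peak within the gene in K replicate 2 (3.33-fold), and Aebp2 had a start-site peak in C replicate 1 (3.197-fold) and peaks within the gene in C replicate 1, K replicate 1 and K replicate 4 (3.96- to 5.22-fold). In all, 4 of 10 members had a start-site peak in at least 1 library, as did 40.9% of protein-coding genes.

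Within Jarid2 a peak was called in 7 of 8 libraries at 1 place, chr13:44869380-44870218, which is intronic and 28597 bp from the nearest annotated start. Fold enrichment was 6.82, 2.53 and 4.65 in C replicates 1 to 3 and 11.9, 3.74, 3.28 and 7.92 in K replicates 1 to 4. C replicate 4 had none. This region is not single-copy. Its 839 bases had 18184 other matches of at least 90% identity on the assembled chromosomes, 12802 of them 200 bases or longer, and 89.9% of its bases lay in at least 1 match. The median was 16 matches per base and 85 bases had none, so most matches fell on a part of the interval. How reads were placed among these copies was not tested, and the peak stands here as a called interval, not as methylation of Jarid2. A gene-body peak in 7 or more libraries was found for 7.99% of protein-coding genes.

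**Figure D5:**
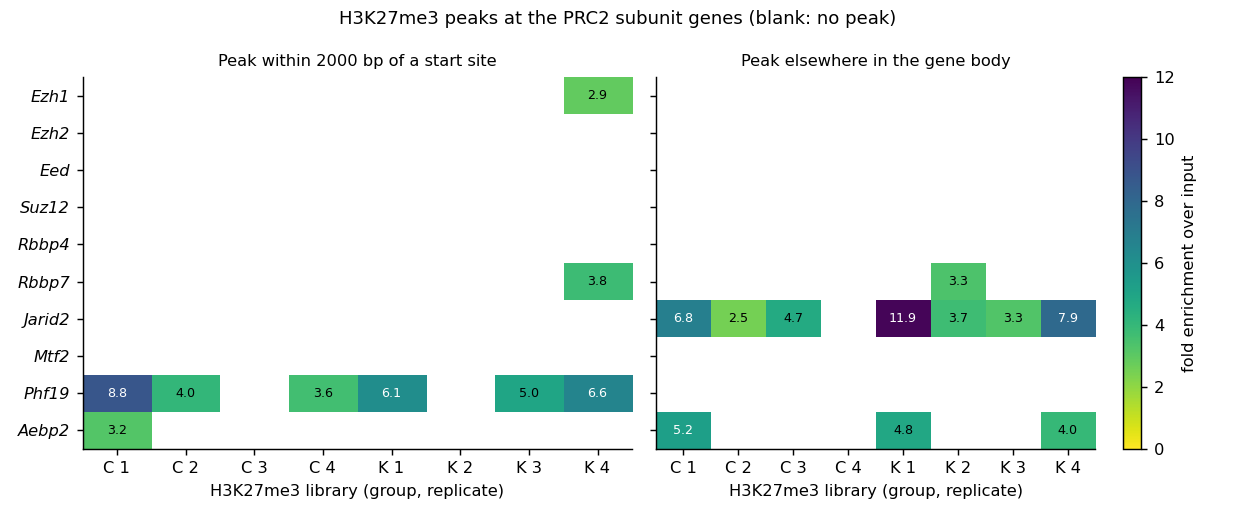
Fold enrichment of H3K27me3 over input for deposited peaks at each PRC2 subunit gene (rows) in the 8 libraries (columns), within 2000 bp of a start site (left) and elsewhere in the gene body (right); blank cells have no peak, and where a gene has several the highest is shown. Phf19 has start-site peaks of 3.63- to 8.80-fold in 6 of 8 libraries.

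The sequence at the Phf19 start is shown beside that of Ezh2, which had no peak, because both are rich in CG pairs, the feature that Polycomb-like proteins bind. The windows run from 250 bases before to 50 after the RefSeq start on GRCm38.p6, are written 5′ to 3′ on the gene's own strand, and have each CG in capitals. Phf19 is at chr2:34913927-34914226, minus strand, and Ezh2 at chr6:47594981-47595280, minus strand.
Phf19: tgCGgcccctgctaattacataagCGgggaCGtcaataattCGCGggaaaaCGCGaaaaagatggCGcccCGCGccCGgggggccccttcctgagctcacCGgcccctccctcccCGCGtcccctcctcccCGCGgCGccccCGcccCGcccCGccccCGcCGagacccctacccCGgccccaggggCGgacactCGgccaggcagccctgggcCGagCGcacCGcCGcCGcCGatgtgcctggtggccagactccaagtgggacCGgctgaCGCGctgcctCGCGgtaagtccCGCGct
Ezh2: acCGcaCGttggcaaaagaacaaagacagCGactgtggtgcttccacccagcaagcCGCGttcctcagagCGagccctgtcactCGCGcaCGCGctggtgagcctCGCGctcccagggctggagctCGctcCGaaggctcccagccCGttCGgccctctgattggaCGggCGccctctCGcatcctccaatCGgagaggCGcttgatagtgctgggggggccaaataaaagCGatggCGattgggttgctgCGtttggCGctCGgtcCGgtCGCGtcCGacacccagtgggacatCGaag

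Phf19 had 38 CG in these 300 bases and Ezh2 31, beside a median of 7 over 32851 such windows. All 10 members had a window, 14 in all. Counts of 38 or more were found in 4.95% of all windows and 31 or more in 10.6%. Suz12 (41), Rbbp4 (39) and Rbbp7 (38) had as many or more. Of these, Suz12 and Rbbp4 had no peak and Rbbp7 had a start-site peak in K replicate 4 alone, so the number of CG in this window did not separate Phf19 from them. The letters TTCCCGC, on either strand, occurred in the windows of Phf19 and Suz12 (4.6% of all windows), and TTGGCGC in those of Ezh2 and Rbbp4 (2.45%). These letters resemble the sites of E2F cell cycle factors, and a match is only a description.

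Jarid2 has a pair of windows, both without an H3K27me3 peak. The one shown starts furthest upstream, at chr13:44730524-44730823, plus strand, with 24 CG, and the other had 23.
Jarid2: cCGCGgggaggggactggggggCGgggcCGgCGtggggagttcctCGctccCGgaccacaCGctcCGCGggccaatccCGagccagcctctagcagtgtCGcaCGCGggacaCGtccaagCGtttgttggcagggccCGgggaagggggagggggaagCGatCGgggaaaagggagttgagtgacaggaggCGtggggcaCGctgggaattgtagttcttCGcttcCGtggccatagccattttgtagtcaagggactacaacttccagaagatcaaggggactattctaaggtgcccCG

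Genes that act with or against PRC2 were taken as lists. Of 5 other PRC2 cofactors 4 were tested, and of 2 H3K27 demethylases, 5 H3K36 methyltransferases and 19 PRC1 genes all were. In these lists 0 genes passed an adjusted p under 0.05 in any of the 4 comparisons, by edgeR, and at an unadjusted p under 0.01 the count was 0 or 1 per list. The H3K36 methyltransferases, whose mark hinders PRC2, were below 0 in all 5 members in each comparison, with a median log2 fold change of -0.08 in the untreated experiment, -0.11 for dcKO vehicle against WT vehicle, -0.18 for dcKO Wnt inhibitor against dcKO vehicle and -0.30 for dcKO Wnt inhibitor against WT vehicle. The medians over all genes were 0.004, -0.003, 0.011 and 0.006, and 51%, 49.3%, 51.8% and 50.8% of all genes were above 0. Their summed level in dcKO Wnt inhibitor was 946.9, 1386.8, 1068.3 and 1137.6 CPM, beside 1167.0 to 1603.8 CPM in WT vehicle. The lowest sums were those of replicates 1 and 3, the libraries with the highest choroid plexus sums, and replicate 2 lay within the WT vehicle range. The part of the choroid plexus signal in these values was not tested. The PRC1 genes, which encode the complex that binds H3K27me3 and ubiquitinates histone H2A, had medians of 0.02, 0.02, 0.03 and 0.12.

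Cell type markers stood as follows beside the members. The summed level of 12 cycling-cell genes was 561.5 to 710.7 CPM in untreated C and 529.3 to 704.0 CPM in untreated M, and 520.7 to 726.1, 516.3 to 665.8 and 562.9 to 696.4 CPM in the 3 treated groups, in the order of the opening. All 5 ranges overlapped. The 10 neuronal genes summed to 9097 to 10079 CPM in untreated C and 7963 to 9455 CPM in untreated M, with 9 of 10 below 0 on the log2 scale, and to 7589 to 10284 and 6945 to 8588 CPM in WT vehicle and dcKO vehicle, with 10 of 10 below 0. The 8 radial glia genes summed to 1274 to 1373 CPM in untreated C and 1362 to 1485 CPM in untreated M (7 of 8 above 0, and 5 of 8 in dcKO vehicle against WT vehicle), and to 1311 to 1452, 1344 to 1475 and 1440 to 1771 CPM in the treated groups. The 4 endothelial genes summed to 128.8 to 152.4 CPM in untreated C and 111.9 to 122.5 CPM in untreated M, and to 122.1 to 159.4 and 114.4 to 125.8 CPM in WT vehicle and dcKO vehicle. The 4 meningeal fibroblast genes had median log2 fold changes of -0.93 and -0.97 in these comparisons, where replicates 2 and 4 of the controls stood apart. Their sums were 7.98, 45.8, 9.75 and 41.5 CPM in untreated C against 8.56 to 17.53 CPM in untreated M, and 7.83, 50.6, 10.6 and 45.2 CPM in WT vehicle against 10.2 to 16.03 CPM in dcKO vehicle. Several lists set replicate 2 apart from the other untreated M and dcKO vehicle libraries, as Jarid2 did. The 10 neuronal genes were highest in it, at 9455 and 8588 CPM. The 4 intermediate progenitor genes were too, at 373, 179 and 210 CPM in untreated M replicates 2, 3 and 4. In dcKO vehicle they summed to 214, 387, 215 and 260 CPM. The 6 interneuron genes were lowest in replicate 2. They summed to 448.5, 764.6 and 694.4 CPM in untreated M replicates 2, 3 and 4 and to 753.6, 474.5, 810.5 and 747.6 CPM in dcKO vehicle, beside 527.3 to 618.6 CPM in untreated C and 538.6 to 653.9 CPM in WT vehicle. These replicate 2 sums lay below the control ranges, whereas Jarid2 of replicate 2 lay within its own. In dcKO Wnt inhibitor, where Jarid2 was not above the WT vehicle range, the interneuron genes summed to 689.8 to 896.1 CPM. No gene of these lists passed an adjusted p under 0.05 in untreated M against C or dcKO vehicle against WT vehicle, and in the Wnt inhibitor comparisons the choroid plexus gene Otx2, a homeobox factor, passed against WT vehicle (log2 fold change 1.64 ± 0.26 SE, edgeR adjusted p = 0.0464). The part of these cell types in the Jarid2 and Aebp2 values was not tested.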

How the data were processed

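RNA was measured in 19 libraries and H3K27me3 in 8. The authors used STAR for alignment to mm10 and featureCounts for counting, and raw counts per gene were deposited (the annotation is not given in the sources used here). The authors called broad H3K27me3 peaks per library with MACS against the pooled input of the group, keeping 1 tag per position. The deposited fold enrichment (a ratio over input) and -log10 q-value were used as given.

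Ensembl identifiers of 36602 (untreated) and 48349 (treated) genes matched GENCODE M21 symbols, and lengths and positions of GRCm38 came from it. Summary lines of the counter were 0. Each experiment was fitted with edgeR 4.0.16 (R 4.3.3: TMM, filterByExpr, robust quasi-likelihood test), with all its groups sharing the estimate of the spread, and p-values were adjusted by Benjamini-Hochberg over all genes tested. The difference between experiments was an interaction in 1 fit. CPM are counts scaled to TMM-adjusted library size, and RPKM divide these by exon length. The log2 Ezh2 to Ezh1 count ratio (0.5 added to each count) was tested between groups by exact permutation (two-sided). The code written for it was checked against scipy 1.17.1 on generated values. Total counts ran from 12514443 to 26600594 in the treated libraries. Peak settings were 2000 bp around GENCODE starts. Promoter windows came from RefSeq (GRCm38.p6), and copies of the Jarid2 region were counted with blastn 2.17.0.

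On simulated counts with 200 genes changed by 1 log2 unit, 165 were recovered in the untreated comparison, 146 in dcKO vehicle against WT vehicle, 144 and 155 in the Wnt inhibitor comparisons and 124 in the interaction. False calls numbered 13, 6, 6, 8 and 4. The change was set in every library of a group, so dcKO-labelled libraries with control-like Smarcc1 were not imitated. In the data the deleted genes themselves missed the threshold in both genotype comparisons. Their edgeR adjusted p was 0.251 and 0.289 for Smarcc1 and 0.252 and 0.337 for Smarcc2. Changes as small as those of the members were not simulated. Alternatives were DESeq2 1.42.0 (test, and size factors alone), no filter, only the groups compared, a replicate block, another pseudocount (5) and leaving out each library. The fits without libraries of Smarcc1 above 200 CPM and the peak alternatives were added after the data were seen. The members, gene lists and tests were chosen with earlier results of these data known. All members are named. Genes of other lists were to be named where they passed an adjusted p under 0.05. The 5 genes most like Ezh2 had the smallest mean absolute difference of centred log2 CPM, among genes of at least 5 CPM.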

Additional observations from a re-analysis of the deposited data

Results flagged for a closer look

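Of 44 groups of 4 libraries examined for a library far from the others (Dixon's ratio above 0.829), 4 were picked out, and chance gives about 1 in 20. In dcKO Wnt inhibitor, replicate 1 was low for Ezh2 (130.8 CPM, next 154.9 CPM, ratio 0.834), for Jarid2 (89.5 CPM, next 111.5 CPM, ratio 0.897) and for Mtf2 (63.4 CPM, next 108.3 CPM, ratio 0.870). This library had Smarcc1 at 214.3 CPM and the highest choroid plexus sum, 837.4 CPM, and the part of either in these values was not tested. In untreated C, the log2 ratio of Ezh2 to Ezh1 counts was 1.59 in replicate 3, with the next at 1.39 (ratio 0.841).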

How the results depend on the processing

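With each RNA library left out in turn, 0 to 1 members were called in the untreated comparison (Jarid2, without M replicate 2) and 0 in the others. The differences in the Ezh2 to Ezh1 log2 ratio ran from 0.11 to 0.25 in the untreated experiment, from -0.0197 to 0.26 for dcKO vehicle against WT vehicle, from 0.19 to 0.34 for dcKO Wnt inhibitor against dcKO vehicle and from 0.22 to 0.51 against WT vehicle. Fold changes whose sign turned ran, in log2, in the untreated experiment from -0.0595 to 0.0114 (Ezh1), -0.0546 to 0.0454 (Rbbp4) and -0.0534 to 0.0200 (Rbbp7). For dcKO vehicle against WT vehicle they ran from -0.0612 to 0.21 (Ezh2), -0.0794 to 0.15 (Eed), -0.12 to 0.24 (Suz12), -0.0353 to 0.0694 (Rbbp4), -0.00804 to 0.0858 (Rbbp7) and -0.14 to 0.33 (Mtf2). For dcKO Wnt inhibitor against dcKO vehicle they ran from -0.15 to 0.0924 (Suz12), -0.0220 to 0.24 (Mtf2), -0.14 to 0.00785 (Phf19) and -0.0554 to 0.11 (Aebp2), and against WT vehicle from -0.17 to 0.19 (Suz12), -0.0408 to 0.0704 (Jarid2) and -0.0648 to 0.40 (Mtf2).

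Without the libraries of Smarcc1 above 200 CPM, 1 member was called for dcKO vehicle against WT vehicle (Jarid2), where Ezh2 was -0.00667 and Rbbp4 -0.0208. For dcKO Wnt inhibitor against dcKO vehicle, Suz12 was then 0.0939 and Phf19 0.0615, and against WT vehicle Jarid2 was 0.0615. For dcKO Wnt inhibitor against dcKO vehicle, Aebp2 was -0.00292 without the filter and -0.00112 with only the compared groups. Against WT vehicle, Jarid2 was 0.00373 with only the compared groups and Suz12 -0.00042 by DESeq2. The cause was not tested. By the rule that every same-number correlation exceed 0.1, replicate numbers were not taken to pair the samples within an experiment (from -0.18 to 0.40 treated and -0.31 to -0.0330 untreated). WT vehicle replicate 1 did correlate at 0.38 with dcKO vehicle replicate 1 and at 0.40 with dcKO Wnt inhibitor replicate 1. The latter libraries correlated at 0.08 with each other. With the replicate block 0 members were called in each comparison, and for dcKO Wnt inhibitor against WT vehicle 64 genes were higher and 125 lower (16 in all without it). With the block the ratio differences were 0.13, 0.11, 0.24 and 0.36. Over all genes DESeq2 called 249 higher and 280 lower in untreated M, 84 and 34 in dcKO vehicle against WT vehicle, and 188 and 156, then 320 and 413, in the Wnt inhibitor comparisons. Under each peak alternative 1 member, Phf19, had start-site peaks in at least 4 libraries.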
